A study of Mus musculus with 12 samples.

Results

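Interferon-stimulated genes (ISGs) were followed in mouse myeloid progenitors from wild-type and HMGN1-OE animals. The set was a fixed list of 42 gene symbols, taken as given and not chosen on their values, and all 42 were listed among the 23309 genes of the FPKM table. FPKM, the unit of the table, is a fragment count per gene scaled for transcript length and library size, so levels of different genes can be compared. RNA-seq was available for 6 groups of 2 libraries, 12 libraries in all, with both genotypes sampled 0, 36 and 96 h after estradiol (E2) was withdrawn. Both genotypes were CD117+ bone marrow cells on a C57BL/6 background, and both carried HoxB8 fused to the estrogen receptor (ER-HoxB8), delivered by retrovirus. With E2 in the medium the fusion is active and differentiation is blocked. HMGN1-OE cells came from mice with a transgene for human HMGN1, a nucleosome-binding protein, and wild-type cells from littermates without it. All groups grew with interleukin 3, and no interferon treatment is named for any group. The study calls the libraries of a group biological duplicates. The age of the animals, and whether duplicates came from separate animals or separate cultures of 1 line, are not given in the sources used here. The p-values therefore rest on these libraries alone and do not measure a spread between animals. For the deposited values their standard errors follow a trend over all genes, not the duplicates of each gene.

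Interferons are secreted antiviral proteins. Type I interferons bind the Ifnar1 and Ifnar2 receptor, whose kinases Jak1 and Tyk2 activate Stat2. With Irf9 it forms part of ISGF3, which binds the interferon-stimulated response element (ISRE) in the promoters of ISGs, whereas interferon gamma acts through the GAS element. Many ISGs are induced strongly only during a response, while others are kept at a basal level in hematopoietic progenitors without any added interferon.

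RefSeq promoter sequences on the GRCm38.p6 build were matched for 33 of the 42 ISGs, and the 250 bases before each gene start were searched on both strands for the ISRE core (GAAA, any 2 bases, GAAA) and for the GAS pattern TTCNNNGAA. Successive ISRE cores can overlap each other. The ISRE core was present for 13 of the 33 genes (39.4%), against 936 of 27025 genes in the promoter table (3.46%). The GAS pattern was present for 7 of the 33 (21.2%), against 8.13% of all genes. The 30-base windows shown are those of the genes to which the results return, each written 5′ to 3′ on the strand of its gene, with the ISRE core in capitals. Where the core lies on the opposite strand the capitals read as its reverse complement. Isg15 and Ifit1 stand for the classical response, Stat2, Bst2 and Igtp for ISGs with a basal level, and Oas1a and its paralog Oas1g for the pair that differed between the genotypes.
Isg15, chr4:156200871-156200900, minus strand: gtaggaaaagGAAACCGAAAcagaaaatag
Ifit1, chr19:34640794-34640823, plus strand: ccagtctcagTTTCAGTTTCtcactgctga
Stat2, chr10:128270266-128270295, plus strand: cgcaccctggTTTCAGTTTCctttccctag
Bst2, chr8:71537577-71537606, minus strand: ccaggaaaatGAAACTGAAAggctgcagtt
Igtp, chr11:58199512-58199541, plus strand: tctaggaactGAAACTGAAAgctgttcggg
Oas1a, chr5:120907526-120907555, minus strand: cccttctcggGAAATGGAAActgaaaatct
Oas1g, chr5:120887614-120887643, minus strand: tgcccttctcggGAAATGGAAActgaaaat
In Oas1a the core began 20 bases before the gene start and in Oas1g 18 bases before it. These are matches of letters in a window and say nothing of binding.

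The ISGs were not one block of expression. A value near 0.1 FPKM marks a gene without signal in this table, and 10 ISGs reached 1 FPKM in no library: Ifit1, Ifit3, Rsad2, Mx1, Mx2, Oas2, Oas3, Oasl1, Oasl2 and Ifi44. By contrast, 21 ISGs were at or above 1 FPKM in all 12 libraries, and 10 were at or above 10 FPKM in all 8 libraries at 0 and 36 h. Genes were tested when they reached 1 FPKM in at least 2 libraries, which held for 31 of the 42 ISGs and 11516 of all 23309 genes. Of the 7 ISGs with a promoter entry that were not tested, 4 held the ISRE core (Ifit1, Ifit3, Oas3 and Rsad2), as did 9 of the 26 that were tested.

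The labelled cell type was checked against its markers. Ptprc (CD45) lay between 55.0 and 133 FPKM in all libraries, and Sfpi1, the symbol used here for the myeloid factor PU.1, between 56.4 and 217 FPKM. The summed FPKM of 14 myeloid progenitor and neutrophil genes was 6155 to 23684 at 0 and 36 h and 65665 to 173812 at 96 h. The members did not move together. S100a8, Ngp, Camp and Ltf, of maturing neutrophils, were higher in every library at 96 h than at 36 h, whereas Mpo, Elane, Prtn3, Ctsg and Cebpa were lower, Mpo at 2451 to 7066 FPKM at 36 h and 13.5 to 406 at 96 h. At 0 h Mpo was at 2107 and 4406 FPKM in wild-type against 540 and 642 in HMGN1-OE libraries, and Elane at 409 and 867 against 106 and 74.0. Prtn3, Cebpa, Cebpe and Itgam were also lower in both HMGN1-OE libraries at 0 h. The other genes of the list overlapped, among them Ctsg at 3862 and 7413 against 5683 and 3711. Of all tested genes 4.67% were lower without overlap at 0 h. S100a9 was listed at 0.0511 FPKM in 1 wild-type library at 96 h, and without this gene the sums at 96 h overlapped between genotypes, at 39119 and 94492 FPKM in wild-type and 68337 and 100351 FPKM in HMGN1-OE libraries. Of 6 genes of plasmacytoid dendritic cells, the main source of type I interferon in blood, 3 stayed below 1 FPKM in every library, the defining Siglech among them at 0.119 FPKM or lower, but Tcf4 reached 24.8 FPKM and Bst2, itself an ISG of the list, 102 FPKM, and the sum was 5.25 to 114 FPKM. Of 6 genes of T and NK cells 3 stayed below 1 FPKM (Cd3e at 0.105 or lower) while Nkg7 reached 75.9 FPKM, with a sum of 6.46 to 81.2 FPKM. Of 5 genes of B cells 3 stayed below 1 FPKM (Ms4a1 at 0.105 or lower) while Cd79b reached 27.8 FPKM, with a sum of 0.548 to 29.0 FPKM. All 3 sums were lower at 96 h than at 36 h in each genotype, but Cd3d of the T and NK list was higher, at 0.142 to 0.276 FPKM at 36 h and 3.14 to 9.11 at 96 h. Of 8 macrophage genes 4 stayed below 1 FPKM, and the sum, mostly Emr1 (F4/80) and Cd68, was 35.2 to 137 FPKM. Csf1r went from 0.275 to 3.62 FPKM at 36 h to 7.17 to 13.5 at 96 h. Mrc1 went from 0.195 to 0.635 FPKM to 1.27 to 3.00. Emr1 and Cd68 were lower at 96 h than at 36 h in wild-type cells and overlapped in HMGN1-OE cells. Of 7 dendritic cell genes 3 stayed below 1 FPKM, and at 0 h the sum of 48.2 to 85.2 FPKM was nearly all Flt3, a receptor that progenitors also carry. At 36 h the wild-type libraries stood apart in Flt3, with 4.10 FPKM in library 0 and 67.0 in library 1, as in Tcf4 (9.92 and 23.7) and Cd79b (3.33 and 27.8). The 5 mast cell and basophil genes summed to 118 to 2609 FPKM, with Mcpt4 at 0.147 FPKM or lower throughout. Prss34 was higher in HMGN1-OE libraries without overlap at 0 h (256 and 78.5 against 34.2 and 14.7 FPKM) and at 36 h (154 and 262 against 69.5 and 67.4). Mcpt8 was so at 0 h only (210 and 174 against 120 and 132), and Cpa3 and Fcer1a overlapped at both times. Of all tested genes 3.26% at 0 h and 1.18% at 36 h were higher without overlap. The part of these cell types in the results was not tested. The median FPKM of tested genes ranged from 14.1 to 30.3 at 0 and 36 h and from 3.06 to 7.32 at 96 h, in a table that the authors scaled to added spike-in RNA. In bulk samples such as these, fewer cells of a type and less RNA per cell cannot be told apart.

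**Figure D1:**
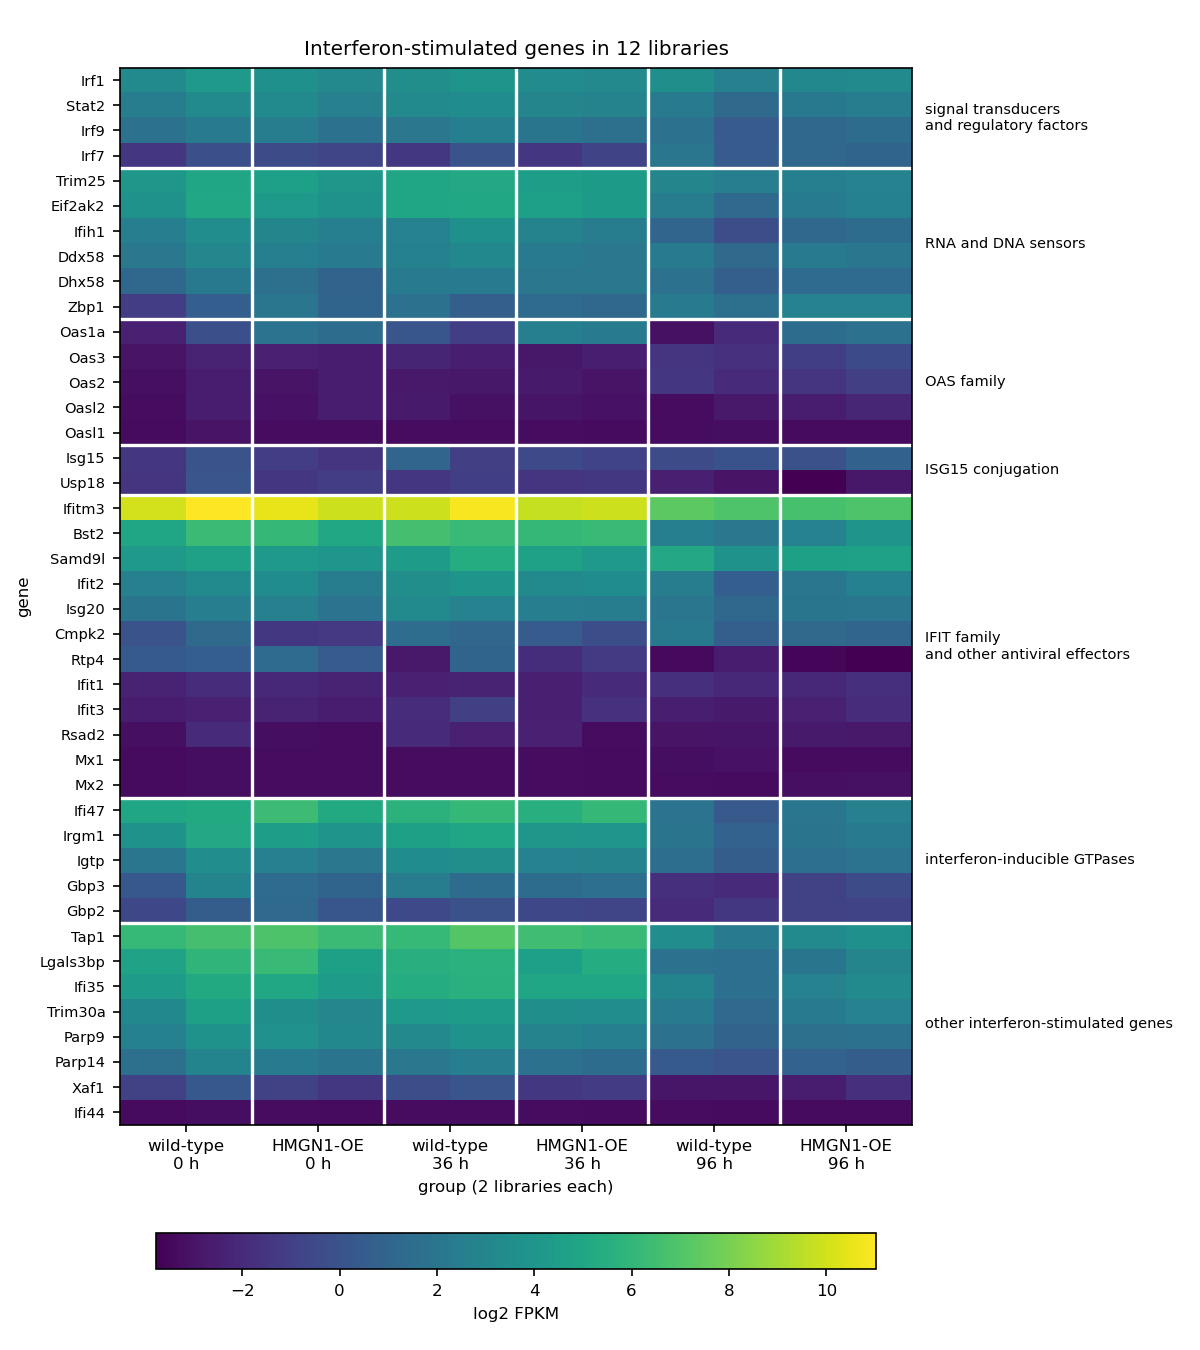
Heat map of log2 FPKM for the 42 interferon-stimulated genes (rows, grouped by role and ordered by mean level) in the 12 libraries (columns, 2 per group); colour gives log2 FPKM, with white lines between groups and roles. Ifitm3 is the brightest row in every library, the 10 genes without a library at 1 FPKM stay dark throughout, and Oas1a is darker in wild-type than in HMGN1-OE columns at each time.

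Among the transducers of the interferon signal, Stat2, Irf9 and Irf1 were above 1 FPKM in all 12 libraries and Irf7 only at 96 h. Stat2, the ISGF3 subunit that brings the activation domain, measured 5.44 and 9.997 FPKM in wild-type and 9.91 and 6.32 in HMGN1-OE libraries at 0 h, 9.41 and 10.9 against 7.75 and 7.17 at 36 h, and 5.25 and 2.56 against 4.59 and 5.50 at 96 h. Irf9, its DNA-binding partner, was at 3.40 and 4.90 FPKM against 5.73 and 3.46 at 0 h, 4.18 and 6.05 against 3.87 and 3.27 at 36 h, and 3.37 and 1.41 against 2.37 and 2.71 at 96 h. The genotypes overlapped for both genes at 0 and 96 h, and both HMGN1-OE libraries were lower at 36 h, as for 84.4% of all tested genes. With each library scaled to the same median FPKM, Irf9 overlapped at 36 h. On that scale Stat2 was higher in both HMGN1-OE libraries at 36 h (5.41 and 5.43 against 4.96 and 4.72), as were 22.7% of all tested genes. Irf1, which interferon gamma induces through a GAS element, was the highest of the 4 factors at 9.46 and 18.7 FPKM against 12.3 and 9.26 at 0 h, 11.7 and 14.96 against 10.2 and 9.02 at 36 h, and 12.2 and 6.36 against 8.80 and 9.69 at 96 h. Irf7, the master regulator of interferon alpha genes and itself an ISG, was low at 0 h (0.374 and 0.885 FPKM in wild-type, 0.761 and 0.629 in HMGN1-OE) and at 36 h (0.383 and 0.991, 0.363 and 0.599), and stood at 4.12 and 1.47 in wild-type and 2.32 and 1.96 in HMGN1-OE cells at 96 h. All 4 libraries at 96 h were above the 8 earlier ones.

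Ifit1, Isg15 and Usp18 were low, whereas Ifit2, of the same family as Ifit1, lay between 1.57 and 14.7 FPKM and the exonuclease Isg20 between 2.37 and 9.82 FPKM. Ifit1, which binds viral RNA lacking a fully methylated cap, was at 0.193 and 0.268 FPKM in wild-type against 0.240 and 0.191 in HMGN1-OE libraries at 0 h, 0.187 and 0.200 against 0.176 and 0.252 at 36 h, and 0.306 and 0.226 against 0.228 and 0.289 at 96 h, and the genotypes overlapped at each time. Isg15, the ubiquitin-like modifier, gave 0.374 and 1.01 FPKM against 0.468 and 0.337 at 0 h, 2.05 and 0.501 against 0.693 and 0.584 at 36 h, and 0.787 and 0.958 against 0.939 and 1.75 at 96 h. The wild-type libraries at 36 h differed from each other by more than any genotype means of Isg15 did. Usp18, the protease that removes Isg15 and restrains receptor signalling, passed 1 FPKM in 1 library only and was not tested, with 0.346 and 1.08 against 0.363 and 0.463 FPKM at 0 h, 0.368 and 0.481 against 0.337 and 0.390 at 36 h, and 0.176 and 0.122 against 0.0726 and 0.143 at 96 h.

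Ifitm3, which blocks entry of viruses through endosomes, was the most abundant ISG in each library and made up 41.8% to 77.9% of the summed FPKM of all 42. Its libraries read 1025 and 2090 FPKM in wild-type and 1488 and 972 in HMGN1-OE cells at 0 h, 972 and 1880 against 842 and 952 at 36 h, and 156 and 125 against 105 and 122 at 96 h. Bst2 (tetherin), which holds budding virions at the cell surface, was at 30.7 and 78.9 FPKM against 67.8 and 34.7 at 0 h, 102 and 73.6 against 67.9 and 74.3 at 36 h, and 6.06 and 4.43 against 6.84 and 14.6 at 96 h. For Eif2ak2 (PKR), the kinase that stops translation on sensing double-stranded RNA, the values were 14.1 and 32.8 FPKM against 19.1 and 14.1 at 0 h, 29.8 and 32.7 against 23.7 and 19.6 at 36 h, and 5.56 and 2.41 against 5.27 and 6.59 at 96 h. As deposited, all 3 genes were lower at 96 h than at either earlier time in every library. From 36 to 96 h, 10414 of 11516 tested genes fell without overlap in wild-type cells, and 10093 did so with HMGN1-OE. With each library scaled to the same median FPKM, the order held for Bst2 only. On that scale Ifitm3 was at 534 in wild-type library 1 at 96 h against 513 in library 0 at 36 h. Eif2ak2 was at 11.99 in HMGN1-OE library 0 at 96 h against 11.74 in library 0 at 0 h.

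Whether HMGN1-OE changed ISG expression was asked at each time with limma on log2(FPKM + 1), the scale of every log2 difference given here unless another is named. A single ISG was called (adjusted p under 0.05) at each time, Oas1a, which was higher in HMGN1-OE cells. Oas1a encodes an oligoadenylate synthetase that makes the activator of RNase L on binding double-stranded RNA. In wild-type cells it was at 0.189 and 0.875 FPKM at 0 h, 1.13 and 0.485 at 36 h, and 0.117 and 0.256 at 96 h. In HMGN1-OE cells it was at 3.57 and 2.78 FPKM at 0 h, 6.18 and 5.15 at 36 h, and 2.78 and 3.36 at 96 h. All 6 HMGN1-OE libraries lay above all 6 wild-type libraries. Of the 7 libraries at 1 FPKM or more, 6 were HMGN1-OE, so Oas1a passed the filter on low values through the group where it was high, and without the filter it was called at no time (adjusted p = 0.564, 0.179 and 0.193 at 0, 36 and 96 h). The log2 difference was 1.48 (SE 0.36, adjusted p = 0.00449) at 0 h, 1.90 (SE 0.36, adjusted p = 3.07e-05) at 36 h and 1.78 (SE 0.36, adjusted p = 0.000266) at 96 h.

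These single calls among 31 tested ISGs stood beside 157 of 11516 genes called at 0 h (1.36%, with 0.799% called higher), 145 at 36 h (1.26%, 0.417% higher) and 77 at 96 h (0.669%, 0.321% higher). At an unadjusted p under 0.05 there were 3, 2 and 1 ISGs. The call of Oas1a depended on the scale and the model. It was lost at all 3 times with each library centred on its median log2 value (adjusted p = 0.400, 0.103 and 0.218) and without moderation of the variance, at 0 and 96 h without the trend, and at 36 h with only the groups compared (adjusted p = 0.0713). With each library scaled to the same median FPKM, the log2 difference was 1.37 (adjusted p = 0.134) at 0 h, 1.88 (adjusted p = 0.0604) at 36 h and 2.16 (adjusted p = 0.0247) at 96 h, so that on this scale the call at 96 h held and the others did not. On that scale 0.165%, 0.0782% and 0.304% of all genes were called at 0, 36 and 96 h. Leaving out library 0 of either genotype at 0 h ended the call at 0 h, and leaving out HMGN1-OE library 1 at 96 h ended it at 96 h, with adjusted p up to 0.27 and 0.0826 (libraries are numbered 0 and 1 as the column names have them).

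Oas1a lies in a cluster of near-identical Oas1 genes, so reads could have been divided among them. The other Oas1 genes are no members of the list and were looked at after the values of Oas1a were seen. Oas1g was at 0.124 and 0.371 FPKM in wild-type against 1.78 and 1.501 in HMGN1-OE cells at 0 h, 0.755 and 0.317 against 2.65 and 2.69 at 36 h, and 0.105 and 0.175 against 1.63 and 1.497 at 96 h, without overlap at any time. It reached 1 FPKM in the 6 HMGN1-OE libraries alone and so was tested through them. Its log2 difference was 1.09 (adjusted p = 0.0754), 1.27 (adjusted p = 0.0139) and 1.17 (adjusted p = 0.0649) at 0, 36 and 96 h. The call at 36 h was lost under 11 of 21 alternatives, among them scaling to the same median FPKM (adjusted p = 0.214) and leaving out wild-type library 1 or either HMGN1-OE library at 36 h (adjusted p up to 0.262), and at 96 h Oas1g was called with that scaling (adjusted p = 0.0337). Under the 21 alternatives Oas1g was called by 3 at 0 h and by 9 at 96 h. Oas1b (log2 differences -0.11, -0.21 and 0.24) and Oas1c (0.31, 0.05 and 0.49) were not called at any time, with adjusted p of 0.577 or more for Oas1b and 0.859 or more for Oas1c. Oas1d, Oas1e, Oas1f and Oas1h stayed at 0.152 FPKM or lower in all libraries. The distantly related family members of the list, Oas2, Oas3, Oasl1 and Oasl2, were at or below 0.715 FPKM everywhere.

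**Figure D2:**
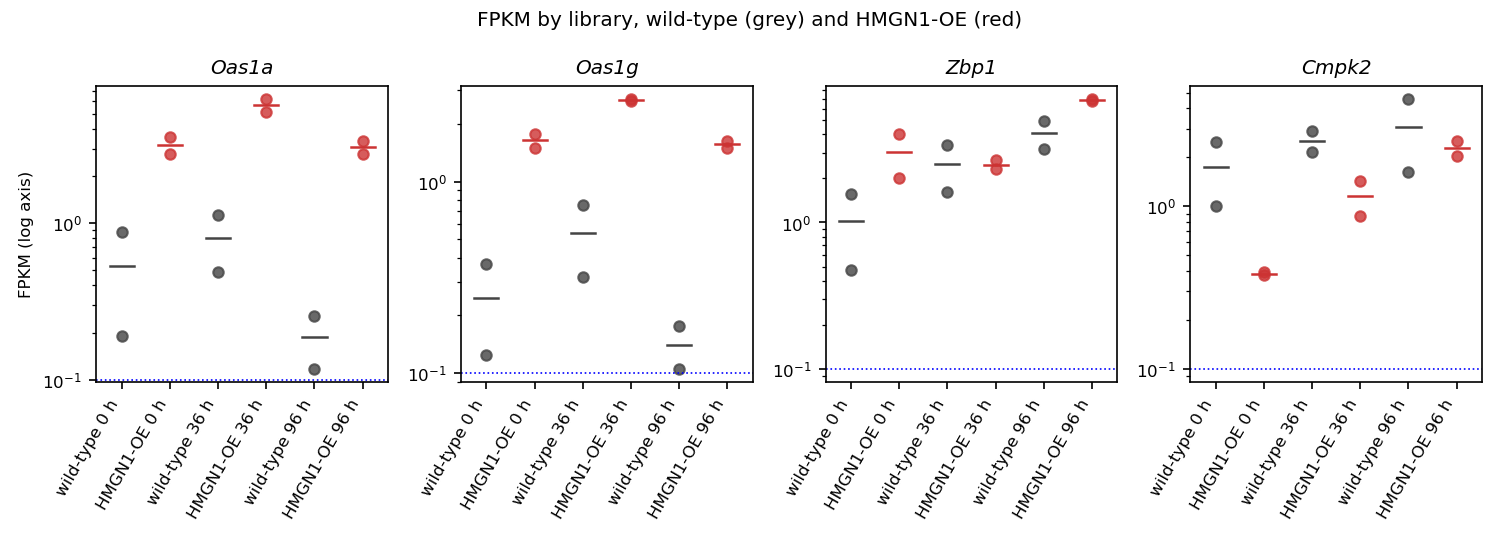
FPKM on a log axis (a separate scale in each panel) for Oas1a, its paralog Oas1g, Zbp1 and Cmpk2 in the 6 groups; points are libraries, short lines group means of 2 libraries, and the dotted blue line marks 0.1 FPKM, the level of a gene without signal. For Oas1a and Oas1g both HMGN1-OE points stand above both wild-type points at each time, whereas for Zbp1 at 36 h and Cmpk2 at 96 h the genotypes overlap.

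Zbp1 and Cmpk2 were the other ISGs with an unadjusted p under 0.05 at 0 h, and neither was called. Zbp1, a sensor of Z-form nucleic acid that triggers cell death, was at 0.474 and 1.57 FPKM in wild-type and 4.05 and 2.03 in HMGN1-OE cells at 0 h, a log2 difference of 1.01 (SE 0.40, adjusted p = 0.467). Cmpk2, a mitochondrial nucleotide kinase next to Rsad2 in the genome, was at 0.998 and 2.48 against 0.376 and 0.394 FPKM at 0 h, a log2 difference of -0.93 (SE 0.36, adjusted p = 0.433). These 2 genes, with Oas1a (higher) and Xaf1 (lower), were the ISGs whose libraries did not overlap between genotypes at 0 h, beside 3.26% of all tested genes that were higher and 4.67% that were lower in both HMGN1-OE libraries. Xaf1 reached 1 FPKM in 2 libraries, both wild-type (1.22 at 0 h and 1.11 at 36 h). It was thus tested only through the genotype where it was high. Without wild-type library 0, Cmpk2 and the guanylate-binding protein Gbp3 were called lower at 0 h and Oas1a was not, while the calls among all genes went from 157 to 277 (188 of them lower) and the median log2 difference of all genes from -0.12 to -0.55.

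At 36 h, 20 of the 31 ISGs were lower and 1 was higher in both HMGN1-OE libraries than in both wild-type libraries, but so were 84.4% and 1.18% of all tested genes. The median log2 difference was -0.45 for the ISGs and -0.54 for all genes. At 96 h the libraries of 13 ISGs stood higher and of 2 lower (Rtp4 and Ifitm3) without overlap, beside 10.2% and 2.97% of all genes. The 13 were Oas1a, Bst2, Ifih1, Trim30a, Ifi47, Igtp, Irgm1, Gbp2, Gbp3, Xaf1, Parp14, Zbp1 and Lgals3bp. Rtp4 lay at 0.0746 to 0.166 FPKM at 96 h and Xaf1 at 0.138 to 0.307. Both were thus near the 0.1 FPKM of a gene without signal, where the order of libraries carries little meaning. The median log2 difference at 96 h was 0.30 for ISGs and 0.36 for all genes. Scaled to the same median FPKM, the ISG medians were -0.03, 0.04 and 0.05 at 0, 36 and 96 h. On that scale 9 ISGs were higher and 10 lower without overlap at 0 h (21.4% and 20.4% of all genes), 7 and 4 at 36 h (22.7% and 11.1%), and 9 and 8 at 96 h (28.5% and 25.5%). Of the 13 genes higher at 96 h as deposited, Oas1a, Ifih1, Trim30a, Ifi47, Irgm1 and Gbp3 were higher without overlap on both scales.

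From 0 to 36 h after E2 withdrawal 1 ISG was called in all. In wild-type cells limma called 0 of 31 ISGs (71 of all genes, 0.617%), with 1 ISG at an unadjusted p under 0.05. In HMGN1-OE cells 1 ISG was called, Rtp4, a chaperone for G protein-coupled receptors that also binds viral RNA, beside 207 of all genes (1.8%, with 1.12% called lower). Rtp4 was at 2.60 and 1.42 FPKM at 0 h and at 0.280 and 0.423 at 36 h in HMGN1-OE cells, and fell by 1.13 on the log2 scale (SE 0.32, adjusted p = 0.0270). It reached 1 FPKM in 5 libraries, all those at 0 h and wild-type library 1 at 36 h. Among HMGN1-OE libraries it thus passed 1 FPKM only at the time at which it was high. Rtp4 was not called without the filter, with a pseudocount of 0.1, without the trend or without moderation of the variance. In wild-type cells it was at 1.31 and 1.53 FPKM at 0 h and at 0.149 and 1.95 at 36 h, so the 2 libraries at 36 h lay on either side of the earlier ones. Flt3 moved with it, from 82.2 and 64.6 FPKM at 0 h to 7.53 and 9.31 at 36 h in HMGN1-OE cells, and from 47.5 and 67.3 to 4.10 and 67.0 in wild-type cells, where the same library was the higher one for both genes. The part of Flt3-expressing cells in this result was not tested. At 96 h Rtp4 was listed at 0.166 FPKM or lower in every library. The call was lost without HMGN1-OE library 0 at 0 h or any of the 4 HMGN1-OE libraries at 36 and 96 h, and it was lost with libraries scaled to the same median FPKM (adjusted p = 0.158). Rtp4 shares 296 exon bases with Gm45338 on the same strand, and how reads in that stretch were assigned is not given in the sources used here.

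From 36 to 96 h more ISGs fell than rose in both genotypes as deposited, as did more genes overall. In wild-type cells 22 of 31 ISGs fell and 1 rose, against 86.3% of all tested genes that fell and 3.15% that rose (89.5% called). In HMGN1-OE cells 11 ISGs fell and 2 rose, against 64.9% and 4.02% (69% called). In wild-type cells the median log2 difference was -1.47 for ISGs and -2.21 for all tested genes, and in HMGN1-OE cells it was -0.71 and -1.33. Scaled to the same median FPKM, 11 ISGs rose and 7 fell in wild-type cells (31.7% and 38.4% of all genes), and HMGN1-OE cells had 13 that rose and 7 that fell (27.6% and 37.5%). The split between rises and falls thus differed between the scales, and both are given for the genes that follow. Without HMGN1-OE library 0 at 96 h, 5 ISGs were called in HMGN1-OE cells in place of 13, and 3885 of all 11516 genes in place of 7942.

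As deposited, the 8 ISGs with the largest falls were the same in both genotypes: Ifi47, Tap1, Bst2, Lgals3bp, Ifitm3, Ifi35, Irgm1 and Eif2ak2. Scaled to the same median FPKM, Gbp3 was among the 8 lowest log2 differences in both genotypes (-0.70 and -0.44, not called), in place of Eif2ak2 in wild-type and of Ifi35 in HMGN1-OE cells. Ifi47 (Irg47), an immunity-related GTPase, was at 53.9 and 69.0 FPKM at 36 h and 3.57 and 1.29 at 96 h in wild-type cells, and at 47.8 and 66.7 and then 4.07 and 6.27 in HMGN1-OE cells. It fell by 4.26 (SE 0.52, adjusted p = 5.37e-15) and by 3.24 (SE 0.52, adjusted p = 1.1e-08) on the log2 scale, and by 2.08 and 1.91 with libraries scaled to the same median FPKM (adjusted p = 0.000198 and 0.000448). Its values at 0 h were 32.2 and 37.5 in wild-type and 81.7 and 37.5 in HMGN1-OE cells, so that all 8 earlier libraries exceeded the 4 at 96 h. Ifi47 shares 111 exon bases with Olfr56 on the same strand.

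Tap1, the peptide pump that loads MHC class I, was at 70.0 and 103 FPKM at 0 h, 70.4 and 136 at 36 h and 11.2 and 4.85 at 96 h in wild-type cells, and at 117 and 79.2, 88.0 and 74.3, and 10.01 and 12.7 in HMGN1-OE cells. It fell by 3.55 (SE 0.54, adjusted p = 4.29e-10) in wild-type and by 2.73 (SE 0.54, adjusted p = 4.92e-06) in HMGN1-OE cells, and decreased by 1.12 and 1.33 with libraries scaled to the same median FPKM (the common-median scale), where both calls held. Its exons overlap those of Psmb9, an immunoproteasome subunit, by 212 bases on the opposite strand, and the library kit did not keep strand. For Bst2 the log2 differences were -3.83 (SE 0.53, adjusted p = 6.95e-12) and -2.70 (SE 0.53, adjusted p = 3.91e-06), and -1.43 and -1.31 on the common-median scale, both still called. Thus Ifi47, Tap1 and Bst2 were lower at 96 h on either scale in both genotypes.

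Lgals3bp, a secreted glycoprotein that binds galectins, was at 26.9 and 60.5 FPKM at 0 h, 46.5 and 51.5 at 36 h and 3.30 and 3.04 at 96 h in wild-type cells, and at 73.3 and 24.6, 24.1 and 42.6, and 3.89 and 7.69 in HMGN1-OE cells. The log2 differences were -3.58 (SE 0.51, adjusted p = 3.06e-11) and -2.34 (SE 0.51, adjusted p = 3.62e-05), and on the common-median scale the call held in wild-type cells (adjusted p = 0.0278) and not in HMGN1-OE cells (adjusted p = 0.0698). Ifitm3 fell by 3.27 (SE 0.61, adjusted p = 2.54e-07) in wild-type and 2.97 (SE 0.61, adjusted p = 1.06e-05) in HMGN1-OE cells. There the common-median scale gave the opposite split, with the call lost in wild-type cells (adjusted p = 0.0568) and kept in HMGN1-OE cells (adjusted p = 0.00198). Neither gene was tested as different between genotypes by these calls, and the interaction of genotype with time was not called for either.

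Ifi35, an adaptor in innate signalling, was at 21.3 and 37.2 FPKM at 0 h, 41.4 and 48.5 at 36 h and 7.38 and 3.08 at 96 h in wild-type cells, and at 32.4 and 21.6, 30.3 and 30.2, and 7.03 and 9.82 in HMGN1-OE cells. Irgm1, the regulatory GTPase of the same family as Ifi47, was at 14.4 and 35.7, 24.4 and 30.9, and 3.72 and 1.81 in wild-type cells, and at 22.6 and 14.8, 17.0 and 15.8, and 3.74 and 5.20 in HMGN1-OE cells. The log2 differences of these and of Eif2ak2 lay between -2.97 and -2.77 in wild-type cells and between -1.74 and -1.68 in HMGN1-OE cells. All 3 remained called in both genotypes on the common-median scale, with differences of -0.75 to -0.48 and -0.38 to -0.37, and all 3 calls in HMGN1-OE cells were lost without HMGN1-OE library 0 at 96 h (adjusted p = 0.0518 to 0.0632).

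**Figure D3:**
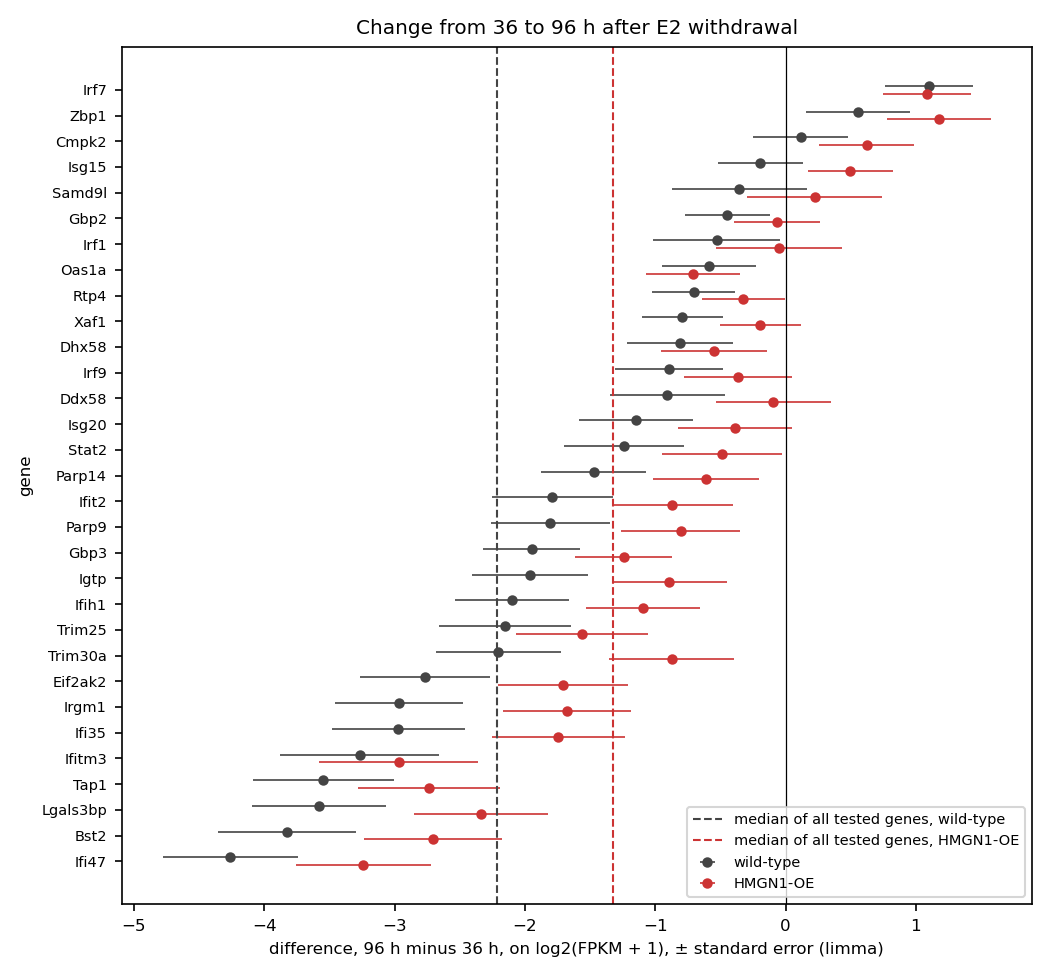
Log2 difference on log2(FPKM + 1), 96 h minus 36 h, with limma standard errors for the 31 tested interferon-stimulated genes in wild-type (grey) and HMGN1-OE (red) cells; dashed lines mark the median of all 11516 tested genes in each genotype, -2.21 and -1.33. Ifi47, Bst2, Lgals3bp, Tap1 and Ifitm3 lie left of both lines, and Irf7 and Zbp1 lie right of 0 in both genotypes.

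As deposited, the ISGs that rose were Irf7 in both genotypes and Zbp1 in HMGN1-OE cells. Irf7 rose by 1.10 (SE 0.34, adjusted p = 0.00153) in wild-type and by 1.09 (SE 0.34, adjusted p = 0.00318) in HMGN1-OE cells, and by 2.61 and 1.98 on the common-median scale. It reached 1 FPKM only in the 4 libraries at 96 h and so passed the filter through the time at which it was high, and without the filter the adjusted p was 0.0307 for wild-type and 0.04998 for HMGN1-OE cells. Its call was lost without wild-type library 0 at 96 h in wild-type cells (adjusted p = 0.15), where the log2 difference was 0.57, and without HMGN1-OE library 0 at either 36 or 96 h in HMGN1-OE cells. Its exons share 45 bases with Phrf1 on the opposite strand. Zbp1 rose by 1.17 (SE 0.40, adjusted p = 0.00665) in HMGN1-OE cells, from 2.67 and 2.31 FPKM to 6.80 and 6.92. This call was lost without HMGN1-OE library 1 at 36 h, without HMGN1-OE library 0 at 96 h and with no filter on low values (adjusted p = 0.0577 to 0.0894). In wild-type cells Zbp1 went from 3.39 and 1.62 FPKM to 4.97 and 3.17, a log2 difference of 0.56 (adjusted p = 0.173) that was not called, and the libraries of the times overlapped. On the common-median scale Zbp1 was called higher at 96 h in both genotypes, by 2.50 (adjusted p = 5.21e-05) in wild-type and 2.40 (adjusted p = 0.000103) in HMGN1-OE cells.

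The roles were not tested against each other, and their counts stand beside the 86.3% (wild-type) and 64.9% (HMGN1-OE) of all genes that fell as deposited. On the common-median scale 31.7% and 27.6% of all genes rose and 38.4% and 37.5% fell. As deposited, Stat2 and Irf9 were called lower in wild-type cells (log2 differences -1.24 and -0.90) and were not called in HMGN1-OE cells (-0.49 and -0.37). The wild-type calls of both were lost without wild-type library 1 at 36 or 96 h, and that of Irf9 also without any 1 of the 4 HMGN1-OE libraries at these times. Irf1 was not called in either genotype (-0.53 and -0.05). Irf9 shares 123 exon bases with Rnf31 on the same strand. On the common-median scale Stat2, Irf1, Irf7 and Irf9 were all called higher at 96 h in both genotypes, by 0.97, 1.83, 2.61 and 1.08 in wild-type and 0.79, 1.30, 1.98 and 0.77 in HMGN1-OE cells. Among the 5 tested GTPases, 4 fell in wild-type cells and 3 fell with HMGN1-OE on the deposited scale, and on the common-median scale Ifi47 and Irgm1 remained lower in both while none was higher. Of the 6 sensors, 4 fell in wild-type cells (Ddx58, Ifih1, Trim25 and Eif2ak2) and 3 in HMGN1-OE cells, and on the common-median scale the RIG-I-like receptors Ddx58 and Dhx58 were higher with Zbp1 in both genotypes and Eif2ak2 alone was lower. Among 7 tested antiviral effectors, 5 fell in wild-type cells as deposited (Ifit2, Isg20, Bst2, Rtp4 and Ifitm3), 2 fell in HMGN1-OE cells (Bst2 and Ifitm3) and 0 rose in either. On the common-median scale Isg20, Samd9l and Cmpk2 were higher in both genotypes, Bst2 was lower in both and Ifitm3 was lower in HMGN1-OE cells.

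The genotype difference in these changes was tested as an interaction. limma called 0 of 31 ISGs for the interaction from 0 to 36 h (0.504% of all genes called) and 0 from 36 to 96 h (0.547%), with 0 and 1 ISGs at an unadjusted p under 0.05. The 1 gene was Trim30a, an inhibitor of inflammatory signalling, with a log2 difference of 1.33 (SE 0.68, adjusted p = 0.355). For the interaction between 0 and 96 h, added after the other comparisons were seen, 0 ISGs and 78 of all genes were called, with 0 ISGs at an unadjusted p under 0.05. The fall of 11 ISGs in HMGN1-OE and 22 in wild-type cells from 36 to 96 h is thus a difference in counts of calls, for which no gene of the list passed the test of a difference.

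The share of all transcript signal in ISGs also changed with time. The 42 genes without Ifitm3 held 0.0446% to 0.0546% of the summed FPKM in the 8 libraries at 0 and 36 h and 0.0304% to 0.0346% in the 4 libraries at 96 h. The median log2(FPKM + 1) of tested ISGs was below that of all tested genes by 1.23 to 1.36 at 0 and 36 h and by 0.46 to 0.69 at 96 h. The share of the sum was thus lower at 96 h, while the median stood closer to that of other genes. Over the same interval S100a8, Ngp, Camp and Ltf were higher and Mpo, Elane, Prtn3, Ctsg and Cebpa lower in both genotypes. Their part in these shares was not tested.

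The upstream pathway was counted from a list of 52 genes. Ligands were without signal. Ifnb1 and Ifng stayed between 0.0967 and 0.105 FPKM in all 12 libraries, and of the 17 type I and III interferon genes none exceeded 0.180 FPKM in any library. All 11 receptors, kinases and STATs were tested, although Ifnlr1 was at 0.151 to 0.204 FPKM at 0 and 36 h. Over the 12 libraries Ifngr1, which binds interferon gamma, had a mean of 85.2 FPKM, Ifnar2 of 53.9 FPKM and Ifnar1 of 12.6 FPKM, and in HMGN1-OE cells at 0 h Ifngr1 (47.4 FPKM) was below Ifnar2 (61.7 FPKM). Jak1 had a mean of 58.9 FPKM. Among the inhibitors the phosphatases Ptpn6, Ptpn2, Ptpn1 and Ptpn11 had means of 126, 64.3, 55.7 and 42.4 FPKM, while Socs1, a feedback inhibitor of JAK kinases, had 6.88. The adaptor Myd88, which carries signals from Toll-like receptors, had 41.6.

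**Figure D4:**
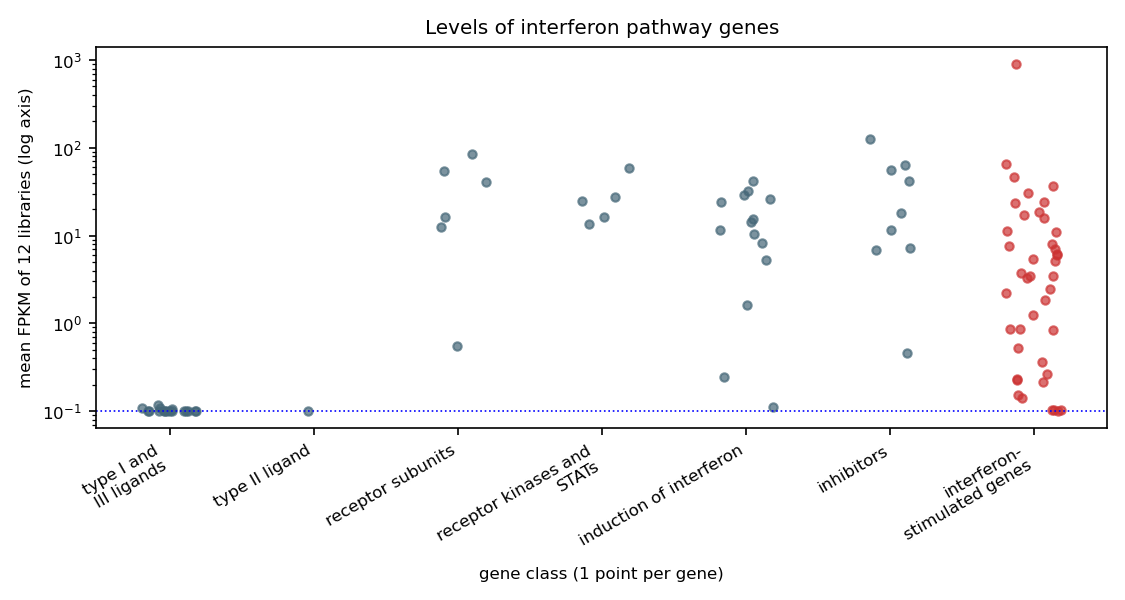
Mean FPKM of 12 libraries on a log axis for each gene of 6 classes of interferon pathway genes and for the 42 interferon-stimulated genes; each point is 1 gene and the dotted line marks 0.1 FPKM. All 18 ligand genes lie at the line, receptors and kinases lie mostly above 10 FPKM, and the interferon-stimulated genes spread from the line to 894 FPKM.

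Between genotypes, 1 of the 32 tested pathway genes was called, at 36 h, when 1.26% of all genes were called. Irf8, the factor of monocyte and dendritic cell fate that also takes part in interferon induction, was called lower with HMGN1-OE at 36 h, at 12.9 and 6.47 FPKM in wild-type and 3.08 and 2.24 in HMGN1-OE libraries (log2 difference -1.49, SE 0.43, adjusted p = 0.0412). The call was lost under 16 of 22 alternatives, among them the common-median scale, where the difference was -0.90 (adjusted p = 0.999), and leaving out wild-type library 0 at 36 h or any of the 6 HMGN1-OE libraries. At 0 h wild-type cells had 2.72 and 15.2 FPKM and HMGN1-OE cells 4.08 and 2.73, and at 96 h 2.86 and 2.58 against 3.33 and 5.24, so the genotypes overlapped at 0 h and HMGN1-OE libraries were the higher ones at 96 h. At 36 h, 84.4% of all tested genes were lower in both HMGN1-OE libraries than in both wild-type libraries, as Irf8 was. The sum of the 8 macrophage genes was also lower at 36 h in HMGN1-OE libraries, at 35.2 and 59.0 FPKM against 94.4 and 127 in wild-type (Emr1 at 17.6 and 40.9 against 59.6 and 102). The dendritic cell genes summed to 8.46 and 11.4 against 5.28 and 68.0 FPKM, which overlapped. Their part in the Irf8 difference was not tested.

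From 36 to 96 h, 26 of the 32 pathway genes fell and 3 rose in wild-type cells (86.3% and 3.15% of all genes), and 6 fell and 3 rose in HMGN1-OE cells (64.9% and 4.02%). On the common-median scale 23 rose and 2 fell in wild-type (31.7% and 38.4%) and 20 rose and 2 fell in HMGN1-OE cells (27.6% and 37.5%). The 3 that rose as deposited were the same in both genotypes, and they are named after their values were seen. They reached 1 FPKM in 3 or 4 libraries, all at 96 h, and so were tested only through the time at which they were high. They were Ifnlr1, the interferon lambda receptor subunit, at 0.151 to 0.192 FPKM at 36 h and 0.668 to 2.07 at 96 h, Tlr7, a receptor for single-stranded RNA, at 0.249 to 0.617 and 3.06 to 5.28 FPKM, and the transcription factor Irf4 at 0.170 to 0.197 and 0.836 to 1.21 FPKM. For each of the 3, the 4 libraries at 96 h did not overlap the 8 earlier ones.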

How the data were processed

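Polyadenylated RNA was sequenced in 12 libraries. The authors deposited FPKM per gene, scaled to ERCC spike-in RNA by loess. Their methods name Bowtie, and the labels name HISAT, Cufflinks 2.0.0 and mm9, so the aligner of the table is uncertain. Depth is unknown, and no counting error is given. Columns gave genotype and time, but their digits are not the labels' replicate numbers. From the deposited FPKM, log2(FPKM + 1) was fitted in R 4.3.3 by limma 3.58.1 (eBayes with trend, 6 group means, two-sided, Benjamini-Hochberg over 11516 genes). The prior degrees of freedom were infinite, so standard errors follow the trend, not the gene's own libraries. An exact permutation test of 2 libraries against 2 has a smallest p of 0.333. In simulated data for HMGN1-OE against wild-type at 0 h (11516 genes), 26% of genes changed by 1 and 81% of those changed by 2 on the log2 scale were recovered with noise on the trend, and 8% and 60% with each gene's own noise. Alternatives were another pseudocount, filter, scale, model or library set. All ISGs could be named, with library values for called or preselected ones. Motifs were searched and figures drawn with Python 3.11.15, and exon overlaps were read from GENCODE vM21. The genes and lists were chosen with earlier results of these data known. One pathway gene preselected for naming is not reported here.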

Additional observations from a re-analysis of the deposited data

How the results depend on the processing

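There were 22 alternatives, 12 of which left out a library; scaling to the same median FPKM was chosen after seeing the data. Of 37 gene differences tried, 13 kept direction and side of the threshold under all alternatives that gave a value, and 6 reversed, those of Stat2, Irf9 and Irf1 from 36 to 96 h. In wild-type cells these became 1.08, 1.43 and 1.79 (log2) with centring on the median, 0.94, 1.05 and 1.79 with quantiles, and 0.97, 1.08 and 1.83 with scaling. In HMGN1-OE cells they became 0.85, 0.98 and 1.29, then 0.78, 0.76 and 1.30, then 0.79, 0.77 and 1.30, and Irf1 ran from -0.13 to 0.0297 without a library. The single ISG called between genotypes dropped to 0 at all 3 times without a filter, with a mean of at least 5 FPKM (which removes Oas1a), with centring on the median and without moderation. It dropped to 0 at 0 and 36 h with quantile normalization or scaling, at 0 and 96 h without the trend, and at 36 h with only the groups compared. Leaving out a library gave 0 to 2 calls at 0 h, 1 at 36 h and 0 to 1 at 96 h. From 0 to 36 h in HMGN1-OE cells, 1 call became 3 with only the groups compared and 0 with a pseudocount of 0.1, no filter, a mean of at least 5 FPKM, centring, quantiles, scaling, no trend or no moderation, and 0 to 1 without a library. From 36 to 96 h in HMGN1-OE cells, 13 calls (11 lower) became 25 with centring (7 lower), 21 with quantiles (7 lower), 20 with scaling (7 lower) and 24 with only the groups compared (20 lower), and 5 to 17 without a library, beside 7942 calls among all genes that became 7022, 7448, 7501, 10254 and 3885 to 8576. In wild-type cells 23 became 18 to 24 without a library. The 23 wild-type calls (22 lower) became 26 with centring (8 lower), 19 with quantiles (7 lower) and 18 with scaling (7 lower). With only the groups compared they became 20 (19 lower). Calls among all genes in wild-type cells went from 10303 to 8282, 8082, 8068 and 9660 in the same order. The cause of these shifts was not tested. No paired analysis was possible because the columns carry no replicate number of the sample names.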

Other observations

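One marker value stood apart from its group and was noticed after the values were seen. S100a9, a neutrophil calcium-binding protein, was listed at 0.0511 FPKM in wild-type library 0 at 96 h and at 26546, 51875 and 73461 FPKM in the other 3 libraries at 96 h, although S100a8, its partner in the calprotectin dimer, was at 69948 FPKM in the same library.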
